A study of Mus musculus with 48 samples.

Results

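The 46 genes described here are mouse genes that respond to interferon, the signalling protein released by cells that sense a virus or a damaged nucleic acid. They were chosen by name, without a threshold on a measured value, but with earlier results of these data known. Their shares set beside those of all genes are therefore descriptions, not independent tests. All 46 were present among the 30743 genes of the deposited count table. By role they were 7 nucleic acid sensors, 4 transcription factors, 2 genes of the ISG15 system, 17 antiviral effectors, 3 genes of the PARP and DTX3L group, 7 interferon-inducible GTPases and 6 genes of antigen processing. Of these, 45 passed the filter on low counts. Mx1, an antiviral GTPase that most inbred strains carry in a defective form, did not pass, with at most 23 reads in any library.

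Interferons bind receptors at the cell surface, which switch on the JAK kinases and transcription factors such as STAT2 and IRF9, and these turn on a large shared set of genes. Type I interferons act mainly through STAT2 and IRF9 at a DNA element called the interferon-stimulated response element, and are known for inducing Isg15, Rsad2 and the Ifit and Oas families. Interferon-gamma acts mainly at gamma-activated sites, and is known for strong induction of the immunity-related GTPases Iigp1, Igtp, Irgm1 and Irgm2, the guanylate-binding proteins, and the immunoproteasome. DNA and RNA that leave the mitochondrion are among the known triggers of the sensors, which is background to a study of exchanged mitochondrial genomes.

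Messenger RNA was sequenced from cardiomyocytes, the contractile cells of the heart, of mice of the strains C57BL/6J and C3H/HeN and of mice in which the nuclear and mitochondrial genomes of these strains had been swapped (mitochondrial-nuclear exchange, MNX). The cells were freed with collagenase after the right ventricle and atria had been taken off, and per the labels all 48 libraries were from day 3 of ACF surgery, which the series title ties to volume overload, or of sham surgery. In 24 libraries the title carries the surgery, with 3 libraries a group: C3H_MNX_ACF and C3H_MNX_sham (genotype label MNX C57n:C3Hmt), C57_MNX_ACF and C57_MNX_sham (MNX C3Hn:C57mt), C3H_wt_ACF and C3H_wt_sham (wild-type C3H), and C57_wt_ACF and C57_wt_sham (wild-type C57B6J). The other 24 libraries were all labelled as sham, with 6 a group: C3Hn-C57mt (C3H nucleus, C57 mitochondria), C3H_WT, C57n-C3Hmt (C57 nucleus, C3H mitochondria) and C57_WT. Age, sex and the number of animals behind a library are not given in the sources used here, so each p-value speaks only of the scatter from library to library, which may be technical.

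In the libraries titled with surgery, the title prefix and the genotype label of the exchanged mice name opposite nuclei. Each library was placed on a scale of 62 genes, none of them an interferon gene, for which every C3H_WT library lay more than 1.5 log2 units above every C57_WT library. The scale is 0 at the C57_WT mean and 1 at the C3H_WT mean. The C3H_MNX libraries scored 0.725 to 0.841 and the C57_MNX libraries scored -0.032 to -0.01, beside 0.771 to 0.816 in C3H_wt and -0.037 to -0.009 in C57_wt libraries, so the nuclear expression profile went with the title prefix and against the genotype label. The groups are therefore called by their titles, and nuclear background is compared in the other 24 libraries, where title and label name the same nucleus.

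Totals were 15.89 M to 20.77 M counts (M for mega) in libraries titled with surgery and 15.97 M to 26.09 M in the others. Levels are given in CPM, the count of a gene divided by its library total in M after scaling by the trimmed mean of M values (a log-ratio method), which do not correct for gene length and are compared only between libraries. The 11 cardiomyocyte markers were detected in every library, with a summed level of 48900 CPM or more in all but C57_wt_ACF library 489, which had 10200 CPM. Library 489 also held 69600 CPM of erythrocyte, 2050 CPM of fibroblast and 530 CPM of macrophage markers, against at most 296, 1030 and 228 CPM in any other library. C3H_MNX_ACF library 6756 had 48900 CPM of cardiomyocyte, 1530 of endothelial, 1030 of fibroblast and 214 of macrophage markers. C57_MNX_sham library 6763 had 51400, 1660, 618 and 145 CPM in the same order, and C3H_wt_sham library 482 had 59000, 951, 396 and 61.6 CPM. In each, the cardiomyocyte level was the lowest of its group and the others were the highest. In bulk RNA, fewer cells of a type and less RNA per cell cannot be told apart. Titles also carry an L code of unstated meaning: in the libraries without a surgery word only L2 holds both nuclei, and among those with surgery only C3H_wt_sham library 482 and library 489 carry L7.

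Several libraries stood apart in the interferon genes, and values without them are given beside results that they move. Library 482 was the highest of its group in 43 of 45 genes, against 38.3% of all genes, C3H_MNX_ACF library 6756 in 42 (45.9% of all genes), library 489 in 40 (46.8%) and C57_MNX_sham library 6763 in 39 (43.2%). C3H_wt_ACF library 471 was highest in 33 (31.4%), C57_MNX_ACF library 6693 in 32 (36.5%) and C3H_MNX_sham library 6649 in 27 (28.9%). Among groups of 6, C3H_WT library 21 was highest in 34 genes (9.37% of all genes) C3Hn-C57mt library 18 in 29 (27.1%), C57n-C3Hmt library 8 in 28 (16.3%) and C57_WT library 1 in 25 (20.7%). The levels summed over the 45 genes were 1168 CPM in library 21, against 325 to 409 CPM in the other C3H_WT libraries, and 678 CPM in library 18, against 323 to 384 CPM in the other C3Hn-C57mt libraries.

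Promoter sequences of 5 genes are shown as examples, picked by their values in these data. Igtp and Irgm2 stood out most in library 21, and Isg15 and Rsad2 in library 489. Rsad2 and Trim25 were the 2 of 45 genes without overlap between nuclei in libraries without a surgery word, against 6.1% of all genes. The sequences are RefSeq's for GRCm38.p6, 250 bases before to 50 bases after the start of the gene, on the gene's own strand. Capitals mark matches to GAAA, any 2 bases and GAAA, the core of the interferon-stimulated response element, and to TTC, any 3 bases and GAA, the core of a gamma-activated site, searched on both strands. Igtp lies at chr11:58199306-58199605 (+), Irgm2 at chr11:58214727-58215026 (+), Isg15 at chr4:156200769-156201068 (-), Rsad2 at chr12:26456403-26456702 (-) and Trim25 at chr11:88999153-88999452 (+).
Igtp: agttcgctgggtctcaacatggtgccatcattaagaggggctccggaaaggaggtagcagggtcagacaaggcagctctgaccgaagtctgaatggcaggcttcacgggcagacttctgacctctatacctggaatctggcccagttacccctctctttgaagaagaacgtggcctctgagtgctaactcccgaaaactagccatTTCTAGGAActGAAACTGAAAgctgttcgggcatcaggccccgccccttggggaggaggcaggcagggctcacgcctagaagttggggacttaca
Irgm2: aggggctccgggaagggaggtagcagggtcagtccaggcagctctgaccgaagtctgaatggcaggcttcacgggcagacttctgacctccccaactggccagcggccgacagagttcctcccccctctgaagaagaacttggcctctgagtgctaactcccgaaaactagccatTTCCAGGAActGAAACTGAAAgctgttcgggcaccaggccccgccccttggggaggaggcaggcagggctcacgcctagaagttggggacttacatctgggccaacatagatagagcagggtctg
Isg15: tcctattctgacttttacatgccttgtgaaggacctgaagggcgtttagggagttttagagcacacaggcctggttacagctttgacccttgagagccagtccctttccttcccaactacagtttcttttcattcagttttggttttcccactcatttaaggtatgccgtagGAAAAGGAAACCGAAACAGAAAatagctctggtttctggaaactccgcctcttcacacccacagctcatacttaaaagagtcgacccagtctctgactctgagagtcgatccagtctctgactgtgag
Rsad2: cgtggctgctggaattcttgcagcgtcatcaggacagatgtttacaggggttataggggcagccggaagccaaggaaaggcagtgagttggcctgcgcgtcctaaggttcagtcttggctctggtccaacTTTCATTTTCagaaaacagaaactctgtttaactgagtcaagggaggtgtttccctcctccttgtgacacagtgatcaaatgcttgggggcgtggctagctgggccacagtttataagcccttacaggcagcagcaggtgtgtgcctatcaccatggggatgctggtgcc
Trim25: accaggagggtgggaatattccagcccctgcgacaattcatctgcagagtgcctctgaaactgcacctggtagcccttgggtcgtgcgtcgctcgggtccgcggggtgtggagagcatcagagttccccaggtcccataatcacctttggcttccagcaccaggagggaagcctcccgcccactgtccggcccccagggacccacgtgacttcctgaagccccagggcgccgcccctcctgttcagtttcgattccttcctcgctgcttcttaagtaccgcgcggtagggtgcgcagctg
Igtp and Irgm2, neighbours on chromosome 11, each hold a match to both cores side by side, Isg15 holds 3 overlapping response elements, Rsad2 holds 1, and the Trim25 window holds neither.

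Promoters were matched for 34 of the 46 genes. The response element core was present in 16 of the 34 (47.1%), against 3.99% of 27025 genes with a promoter of the same length. The gamma-activated core was present in 10 of the 34 (29.4%), against 9.55% of those genes. The promoters of Dhx58, Zbp1, Usp18, Oas2, Mx1, Mx2, Rtp4, Parp9, Parp14, Iigp1, Gbp6 and Nlrc5 were not used here. A match is a description of the letters in these windows.

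More interferon genes passed the test by nuclear background than by ACF or mitochondrial exchange, and so did more of all genes. Over the mean of both mitochondrial genomes, 33.3% of the 45 genes were called, near the 35.7% of all genes. The shares were 46.7% against 31.9% with C57 mitochondria and 13.3% against 19.4% with C3H mitochondria. With C57 mitochondria, 21 of 45 genes were lower and none higher in C3Hn-C57mt than in C57_WT libraries, where 31.9% of 13395 genes were called in either direction and 16% were called lower. With C3H mitochondria, 1 gene was higher and 5 were lower in C3H_WT than in C57n-C3Hmt libraries, where 19.4% of all genes were called. Over the mean of both, 1 gene was higher and 14 were lower on the C3H nucleus, where 35.7% of all genes were called and 16.8% were called lower. A gene was called where edgeR's quasi-likelihood test, adjusted over all genes, gave a value below 0.05. C57_WT is L8 throughout and C3Hn-C57mt is L2 or L3, while C3H_WT is L3 throughout and C57n-C3Hmt is L2 or L8. Neither the comparison with C57 nor that with C3H mitochondria shares an L code, so L code and nucleus cannot be told apart there. Per the submitters' processing notes, reads were mapped to mm9, a C57BL/6J assembly, and its effect on these nuclear differences was not tested.

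Rsad2, which encodes viperin, an enzyme that stops the copying of viral RNA, separated the nuclei in the libraries without a surgery word in the title. In the ACF libraries the title prefixes overlapped, with values given below. Its level was 1.71, 3.07 and 3.91 CPM (lowest, median and highest) in C3Hn-C57mt and 1.82, 2.35 and 4.36 CPM in C3H_WT libraries. It was 4.92, 9.23 and 13.2 CPM in C57n-C3Hmt and 7.75, 10.2 and 19.7 CPM in C57_WT libraries. None of these libraries on the C3H nucleus reached the lowest on the C57 nucleus. The mean nuclear log2 fold change was -1.83 (SE 0.185, edgeR adjusted p 9.17e-09), with -1.93 on C57 and -1.73 on C3H mitochondria.

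Trim25, a ubiquitin ligase that activates the RNA sensor RIG-I, also divided the libraries without a surgery word by nucleus. It had 8.26, 9.86 and 12.4 CPM in C3Hn-C57mt and 8.43, 10.2 and 13.8 CPM in C3H_WT libraries, against 14.1, 17.1 and 18.9 CPM in C57n-C3Hmt and 17, 18.1 and 20.9 CPM in C57_WT libraries. The gap between the highest library on the C3H nucleus and the lowest on the C57 nucleus was narrow, 13.8 against 14.1 CPM. The mean log2 fold change was -0.77 (SE 0.0828, edgeR adjusted p 2.97e-08). Rsad2 and Trim25 were the 2 of 45 genes without overlap between the 12 libraries of each nucleus, a state that 6.1% of all genes shared.

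**Figure D1:**
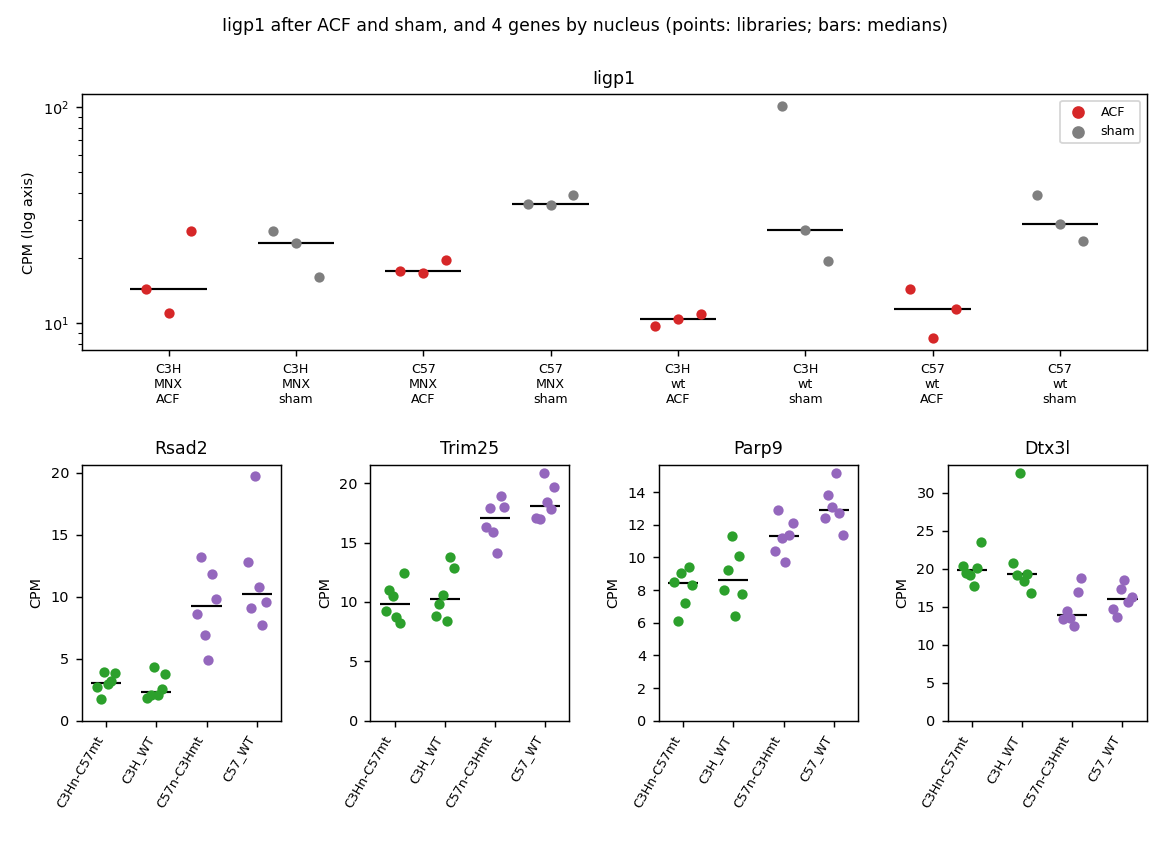
Levels in CPM of Iigp1 by surgery group (top, log axis) and of Rsad2, Trim25, Parp9 and Dtx3l by nucleus and mitochondria in the libraries without a surgery word (bottom). Points are libraries and bars are medians; Rsad2 reaches 4.36 CPM at most on the C3H nucleus and 4.92 CPM at least on the C57 nucleus, and Dtx3l runs the other way.

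Cmpk2 encodes a mitochondrial nucleotide kinase and lies beside Rsad2 on chromosome 12. Its median level was 2.31 CPM in C3Hn-C57mt and 2.42 CPM in C3H_WT libraries, against 3.92 CPM in C57n-C3Hmt and 5.45 CPM in C57_WT libraries. It was called lower with either mitochondrial genome, with log2 fold changes of -1.19 on C57 and -0.75 on C3H mitochondria (edgeR adjusted p 5.08e-05 and 0.00973). Ifit2, which encodes a protein that binds viral RNA, was called lower with either as well, by -0.76 on C57 and -0.77 on C3H mitochondria.

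Parp9 and Dtx3l encode the partners of a ubiquitin ligase complex, and they moved in opposite directions. Parp9 had 6.09, 8.42 and 9.4 CPM in C3Hn-C57mt and 6.44, 8.61 and 11.3 CPM in C3H_WT libraries, against 9.73, 11.3 and 12.9 CPM in C57n-C3Hmt and 11.4, 12.9 and 15.2 CPM in C57_WT libraries. Its mean nuclear log2 fold change was -0.52 (edgeR adjusted p 1.93e-05). Dtx3l had 17.7, 19.8 and 23.5 CPM in C3Hn-C57mt and 16.8, 19.2 and 32.6 CPM in C3H_WT libraries, against 12.4, 13.9 and 18.7 CPM in C57n-C3Hmt and 13.7, 16 and 18.5 CPM in C57_WT libraries. It was the gene called higher on the C3H nucleus, at a mean of 0.41 on the log2 scale (SE 0.0921, edgeR adjusted p 0.00082). The nuclei overlapped for both genes.

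By role, the calls with C57 mitochondria covered 5 of 7 sensors, 3 of 4 transcription factors, 1 of 2 genes of the ISG15 system, 9 of 16 antiviral effectors, 1 of 3 genes of the PARP and DTX3L group, 2 of 7 GTPases and 0 of 6 genes of antigen processing. After Rsad2, the largest falls were in Zbp1 (-1.55), a sensor of unusual nucleic acid forms, Oasl1 (-1.41) and Oasl2 (-1.27), relatives of the oligoadenylate synthetases, and Gbp2 (-1.35), a guanylate-binding protein. Zbp1 and Oasl1 were low, with at most 0.96 and 1.77 CPM in any library without a surgery word, so their values are limited by depth. Ifit3 fell by 1.03, Irf7, which amplifies interferon production, by 0.94, and Oas2 by 0.93 on the log2 scale. Stat2 fell by 0.61 and Ifit1 by 0.77. The 24 genes that did not pass ran from -1.16 (Nlrc5, edgeR adjusted p 0.0607) to 0.58 (Psmb10, adjusted p 0.0542), and 16 of them were below 0. Isg15, the ubiquitin-like protein joined to other proteins in the interferon response, had 0.441, 0.917 and 1.1 CPM in C3Hn-C57mt libraries against 1.12, 1.22 and 3.15 CPM in C57_WT libraries, a log2 fold change of -0.895 (edgeR adjusted p 0.0371). The groups did not overlap for 9 of the 45 genes, against 14.7% of all genes: Ddx58, Gbp2, Ifit2, Isg15, Oasl2, Parp9, Rsad2, Stat2 and Trim25.

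**Figure D2:**
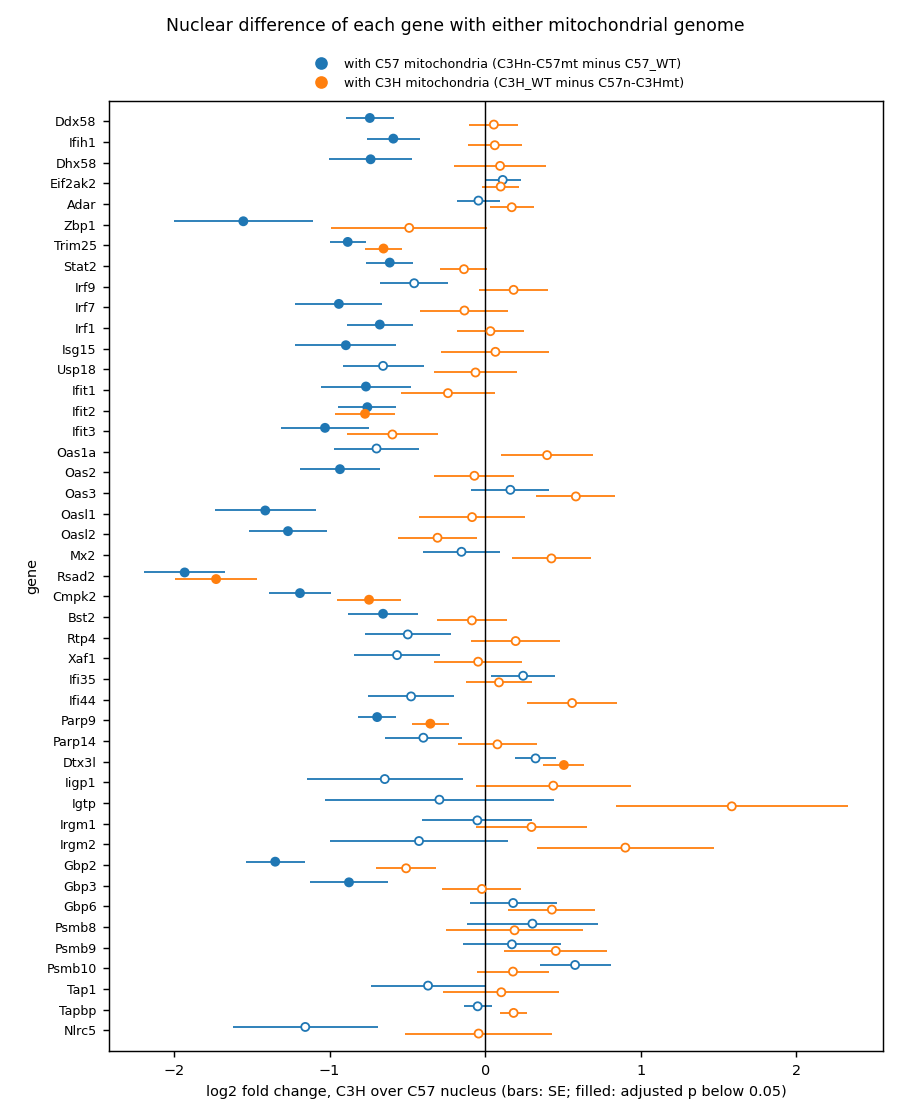
Log2 fold change of each of 45 genes, C3H over C57 nucleus, with C57 mitochondria (blue) and with C3H mitochondria (orange); bars are standard errors and filled points passed the edgeR test. With C57 mitochondria 21 genes are filled, all on the lower side, and with C3H mitochondria 6 are.

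The median log2 fold change over the 45 genes was -0.645 with C57 mitochondria, beside 0.007 over all genes, and 0.066 with C3H mitochondria, beside 0.024 over all genes and -0.163 without library 21. The difference between these nuclear effects, tested directly as an interaction, was called for 0 of 45 genes (0% of all genes, edgeR). Unadjusted p was below 0.05 for 13 genes (28.9%, against 16.3% of all genes), and DESeq2 called 1, Ddx58, which encodes RIG-I, and 2.48% of all genes. The median interaction was -0.571, with 40 of 45 genes below 0, and -0.267 without library 21. Ddx58 had -0.80 (SE 0.221, edgeR adjusted p 0.096), Gbp2 had -0.84 (SE 0.27, adjusted p 0.129) and Oasl1 had -1.33 (SE 0.472, adjusted p 0.161).

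Macrophage markers differed in the same libraries. With C57 mitochondria 9 of 11 macrophage markers were called lower on the C3H nucleus (median log2 fold change -1.02), and their summed level was 45 to 95.8 CPM in C3Hn-C57mt libraries against 91.1 to 228 CPM in C57_WT libraries. With C3H mitochondria 1 was called higher and 0 lower (median 0.294), with 62.1 to 222 CPM in C3H_WT libraries against 62.1 to 97.3 CPM in C57n-C3Hmt libraries. No macrophage marker was at 0 in any library, and 4 of 11 endothelial markers were also lower with C57 mitochondria. The part of these cells in the interferon gene differences was not tested.

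**Figure D3:**
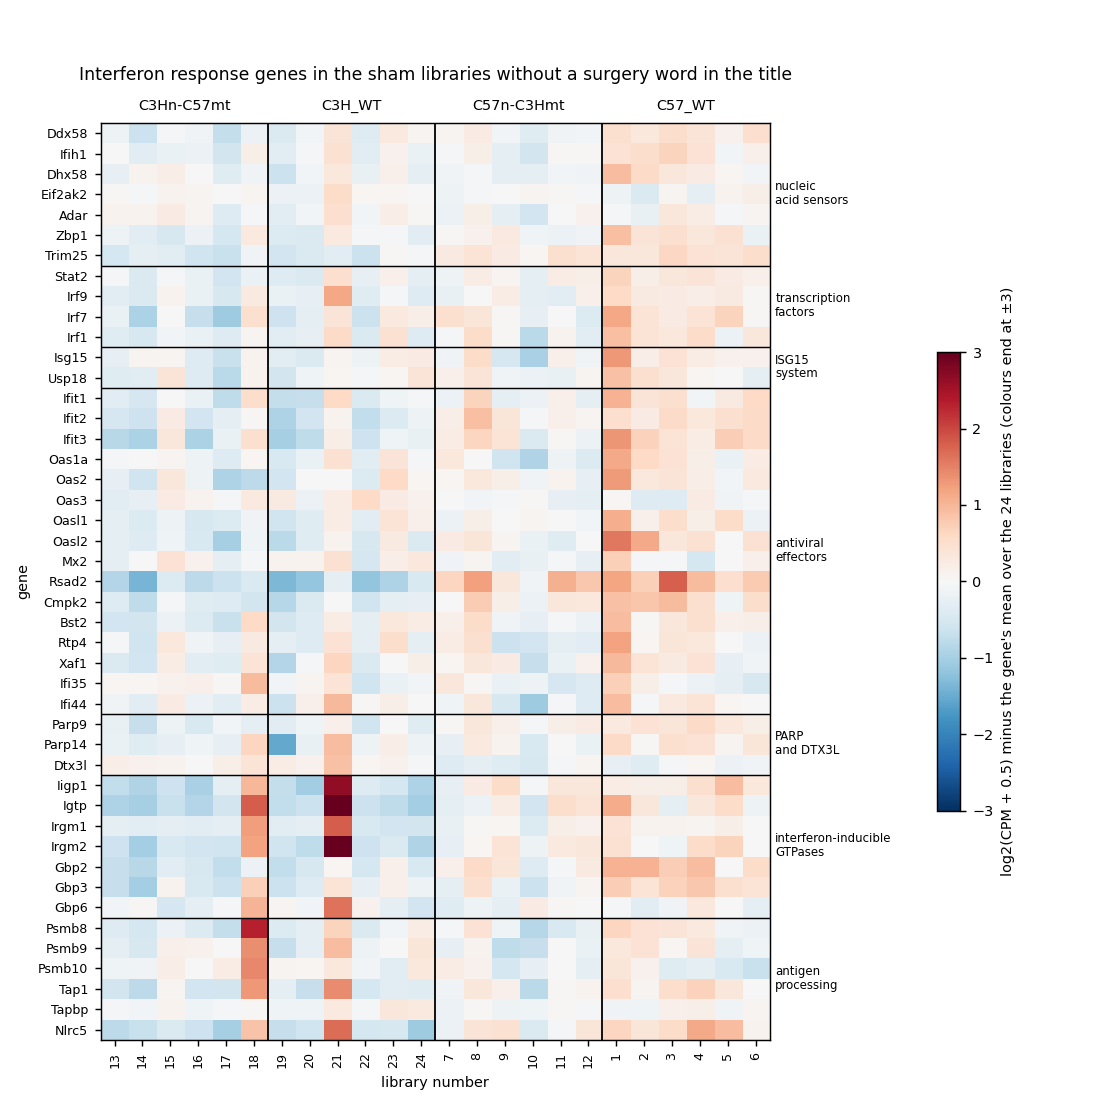
Level of 45 interferon genes, by role, in the 24 sham libraries without a surgery word in the title, as log2(CPM + 0.5) minus the mean of the gene over these libraries. Rsad2 and Trim25 are low in all libraries of the C3H nucleus, the GTPases are high in C3H_WT library 21, and C3Hn-C57mt library 18 is high in the GTPases and in antigen processing.

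The nuclear counts moved with libraries 21 and 18. Without both, chosen after seeing the data, 29 of 45 genes were called over the mean of both mitochondrial genomes, 28 of them lower, where 32.6% of all genes were called. Without library 21 alone the count over the mean was 23. Without both it was 32 with C57 mitochondria (27.9% of all genes) and 12 with C3H mitochondria (17.5%). The GTPases Iigp1, Igtp, Irgm2 and Irgm1 then had mean log2 fold changes of -1.02, -1.06, -0.90 and -0.46. Both libraries are on the C3H nucleus and were picked for their high interferon genes, these GTPases among them. C57_WT library 1 and C57n-C3Hmt library 8, also high, were kept. Leaving out high libraries from the C3H side alone lowers that side and its spread, so these counts and values are no test of the nucleus. With all libraries, Iigp1 had -0.10 and Igtp 0.65, and neither was called. Nlrc5, the activator of class I antigen presentation genes, had -1.40 without the libraries.

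Iigp1, which disrupts the vacuoles of intracellular parasites, had 16, 19.7 and 64.1 CPM in C3Hn-C57mt and 15.3, 20.7 and 205 CPM in C3H_WT libraries, against 27, 39 and 46.7 CPM in C57n-C3Hmt and 36.2, 38.6 and 60.7 CPM in C57_WT libraries. Igtp had 6.26, 7.47 and 47.3 CPM in C3Hn-C57mt and 6.17, 7.83 and 209 CPM in C3H_WT libraries, against 8.58, 13.4 and 18.9 CPM in C57n-C3Hmt and 10.6, 16.6 and 28.5 CPM in C57_WT libraries. For both genes the medians were lower on the C3H nucleus while the highest library was on it.

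The L code bore on the count of nuclear calls. With the L code as a term, 2 genes were called with C57 mitochondria (8.03% of all genes) and 2 with C3H mitochondria (8.89%), Rsad2 and Trim25 in each, and 3 over the mean (10.4%), Rsad2, Trim25 and Parp9. That fit ties C57_WT to the other nucleus only through C57n-C3Hmt libraries 7 and 8, in L8. It ties C3H_WT to the other nucleus only through C3Hn-C57mt libraries 17 and 18, in L3, so fewer calls cannot be read as no difference. Within L2, where C3Hn-C57mt libraries 13 to 16 and C57n-C3Hmt libraries 9 to 12 differ in both nucleus and mitochondria, 1 of 44 genes was higher and 10 were lower, where 30.1% of all genes were called. They included Iigp1 (-1.17, edgeR adjusted p 1.73e-05), Trim25 (-0.795), Irgm2 (-0.95), Rsad2 (-1.62) and Igtp (-1.15). The gene higher within L2 was Ifi35 (0.39), which encodes a leucine zipper protein.

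The title prefixes of the surgery libraries gave fewer calls. After ACF, 2 genes were higher and 1 was lower in C3H than in C57 titles, where 13.6% of all genes were called, 6.23% higher and 7.4% lower: Ifi35 (0.52, SE 0.141, edgeR adjusted p 0.0174), Psmb10, an immunoproteasome subunit (0.45, SE 0.126, adjusted p 0.0222), and Rsad2 (-2.56, SE 0.701, adjusted p 0.019). Rsad2 had 2.54, 2.92 and 8.24 CPM in C3H_MNX_ACF and 2.7, 5.83 and 0.898 CPM in C3H_wt_ACF libraries, against 4.91, 7.34 and 13.6 CPM in C57_MNX_ACF and 5.36, 162 and 5.67 CPM in C57_wt_ACF libraries. The 162 CPM are those of library 489, and without it the log2 fold change was -0.86. With the L code as a term none of the 3 was called, and over the fits that left out a library the count ran from 0 (without 6650) to 7 (without 6756), with Rsad2 losing its call in 5 of 12 fits, Psmb10 in 4 and Ifi35 in 1. In the same comparison 4 of 5 neutrophil and 4 of 4 erythrocyte markers were called lower and all 11 macrophage markers were below 0, and their part was not tested. Neutrophil markers summed to 82.6 CPM in library 489 and 84.5 CPM in C57_MNX_ACF library 6693, against at most 1.91 CPM in other ACF libraries. Erythrocyte markers summed to 69600 and 296 CPM in these libraries, against at most 133 CPM in other ACF libraries. After sham, 0 genes were called, where 8.39% of all genes were, 4.46% higher and 3.93% lower (3 with unadjusted p below 0.05, against 18.7% of all genes, and 0 by DESeq2), with Cmpk2 at -0.82 (edgeR adjusted p 0.206), Ifi35 at 0.32 (adjusted p 0.217) and Rsad2 at -1.44 (adjusted p 0.252). Without libraries 482 and 489, chosen after seeing the data, 8 were called after sham, all lower (14% of all genes): Rsad2, Irgm2, Oasl2, Nlrc5, Gbp2, Parp9, Cmpk2 and Iigp1. Library 482 is a C3H_wt_sham library picked for its high interferon genes, so leaving it out lowers the C3H side by that choice. With all libraries and the L code as a term, 5 interferon genes were called after sham. The share of all genes called in that fit is not given here.

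ACF lowered Iigp1 and no other interferon gene passed the test. Over the mean of the 4 title pairs, 1 of 45 genes was called, where 0.275% of 13440 genes were called, 0.201% higher and 0.0744% lower. Iigp1 had 14.4, 11.1 and 26.5 CPM in C3H_MNX_ACF against 26.6, 23.4 and 16.3 CPM in C3H_MNX_sham libraries, and 17.3, 17.1 and 19.5 CPM in C57_MNX_ACF against 35.4, 35.3 and 39.2 CPM in C57_MNX_sham libraries. It had 9.66, 10.4 and 11 CPM in C3H_wt_ACF against 101, 26.8 and 19.4 CPM in C3H_wt_sham libraries, and 14.4, 8.47 and 11.6 CPM in C57_wt_ACF against 39.3, 28.6 and 23.9 CPM in C57_wt_sham libraries. The ACF and sham libraries overlapped in C3H_MNX alone. The log2 fold change was -1.26 (SE 0.218, edgeR adjusted p 0.0175), from -0.99 to -1.37 when any library was left out, with adjusted p of 0.00748 to 0.0439. Without libraries 482 and 489 it was -0.95 (adjusted p 0.00351). With the L code as a term it was -1.25 and was no longer called (adjusted p 0.0595).

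Dtx3l and the GTPase Irgm2 followed Iigp1 by p and did not pass, at -0.35 with a standard error of 0.106 for Dtx3l and -0.53 with 0.211 for Irgm2 (edgeR adjusted p of 0.182 and 0.333). The 45 genes had a median log2 fold change of -0.269 over the mean, beside 0.001 over all genes, with 14 above 0. Isg15 stood at 0.72 and Oasl2 at 0.51, and without libraries 482 and 489 at 0.21 and 0.24. The 11 macrophage markers were all above 0 (median 0.46) with 0 called, and their part in the interferon values was not tested.

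**Figure D4:**
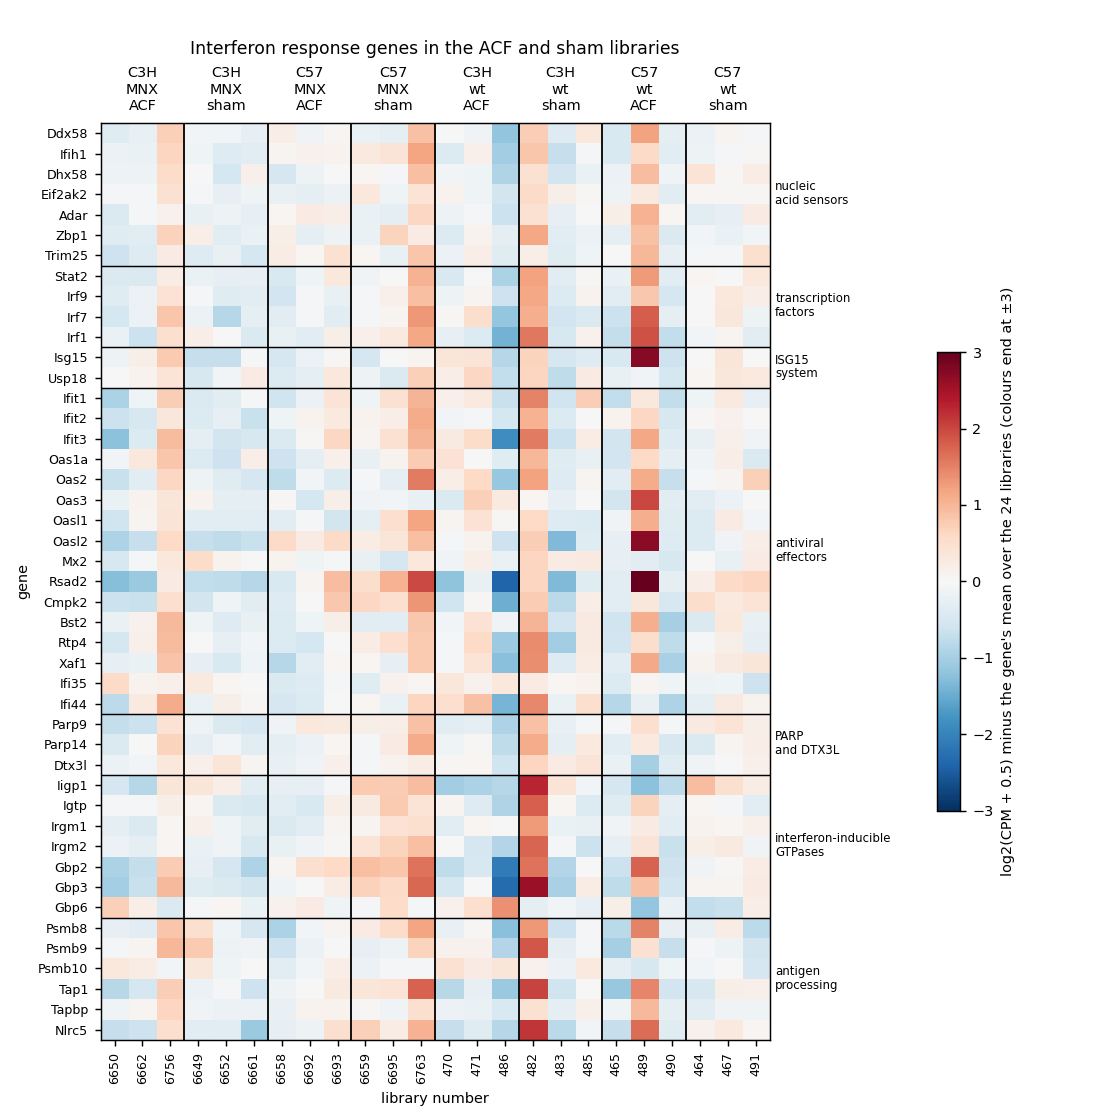
Level of 45 interferon genes, by role, in the 24 libraries titled with surgery, as log2(CPM + 0.5) minus the mean of the gene over these libraries. Libraries 6756, 6763, 482 and 489 are the highest of their groups in 39 or more of the 45 genes, and Iigp1 is low after ACF in both wild types.

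Within each title pair, 0 of 45 interferon genes were called by edgeR after ACF, where 0% of all genes were called in C3H_wt, C57_wt and C57_MNX and 0.00744% in C3H_MNX. Unadjusted p was below 0.05 for 13 genes in C3H_wt, 6 in C57_wt, 3 in C57_MNX and 0 in C3H_MNX, against 7.08%, 15.1%, 2.04% and 1.71% of all genes. As shares of the 45 genes, these were 28.9% in C3H_wt and 13.3% in C57_wt. DESeq2 called Iigp1 in C3H_wt (-2.24, adjusted p 0.000456), where it called 0.618% of all genes, and no interferon gene in the other 3 pairs, where it called 1.31% in C57_wt, 0.0223% in C3H_MNX and 0.00744% in C57_MNX. The median log2 fold changes were -0.681 in C3H_wt, 0.124 in C57_wt, 0.314 in C3H_MNX and -0.642 in C57_MNX.

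In C3H_wt, 39 of 45 genes were below 0. Iigp1 stood at -2.24 (SE 0.447) with an adjusted p of 0.096 by edgeR, Irgm2 at -1.21 with 0.474 and Igtp at -1.23 with 0.484. The median was -0.072 without libraries 482 and 489, of which 482 was a C3H_wt_sham library, and Iigp1 then had -1.16. In C57_wt, 26 genes were above 0, among them Rsad2 at 2.54 (adjusted p 0.236) and Oasl2 at 1.61 (adjusted p 0.278), and without these libraries the median was -0.632 with 3 genes above 0. Without library 489 alone the median was -0.617. Library 482 also had the lowest cardiomyocyte and the highest endothelial, fibroblast and macrophage markers of its group, and the part of those cells was not tested.

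In C57_MNX, 41 of 45 genes were below 0, and 12 had all ACF libraries below all sham libraries, against 8.49% of all genes without overlap in either direction. They were Eif2ak2, the kinase PKR that halts translation, Ifih1, the RNA sensor MDA5, Irf9, Gbp2, Gbp3, Igtp, Iigp1, Irgm1, Irgm2, Psmb8, Rtp4 and Tap1, the peptide transporter of antigen processing. Iigp1 had -1.03 (SE 0.434), Eif2ak2 -0.47 (SE 0.214) and Oasl1 -1.74 (SE 0.806), each with an edgeR adjusted p of 1. Without library 6763 the median was -0.295, with 11 genes above 0, and Oasl1 was at -1.02. In C3H_MNX, 41 genes were above 0, with Oas1a at 0.96, Tapbp at 0.41 and Eif2ak2 at 0.29 (each adjusted p 1), and 0 genes were without overlap, against 9.67% of all genes. Without library 6756 the median was -0.13 with 17 genes above 0, and these genes were at 0.58, 0.16 and 0.10. Libraries 6763 and 6756 also had the lowest cardiomyocyte and the highest endothelial, fibroblast and macrophage markers of their groups. The part of those cells was not tested. In the wild types, Iigp1, Dtx3l and Mx2 were without overlap and lower after ACF in each, among 5 genes in C3H_wt (23.3% of all genes) and 4 in C57_wt (7.14%).

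ACF responses were compared directly. The response of C3H_MNX minus that of C3H_wt was called for 0 genes (0% of all genes; 10 with unadjusted p below 0.05, against 2.96% of all genes; 0 by DESeq2), with a median of 0.991 and 42 genes above 0. Iigp1 had 1.89 (SE 0.612), Eif2ak2 0.765 (SE 0.296) and Igtp 1.54 (SE 0.612), each with an edgeR adjusted p of 0.96. The response of C57_MNX minus that of C57_wt was called for 0 genes (0%; 2 unadjusted, against 5.76% of all genes; 0 by DESeq2), with a median of -0.652, and Rsad2 had -3.60 (SE 1.33), Oasl1 -2.51 (SE 1.11) and Psmb8 -1.88 (SE 0.93), each with an adjusted p of 0.751. Without libraries 482 and 489 the medians were 0.326 and -0.069, and they were 0.522 without library 6756 for the C3H titles and -0.321 without library 6763 for the C57 titles. The response in C3H titles minus that in C57 titles was called for 0 genes (0%; 0 unadjusted, against 3.19% of all genes; 0 by DESeq2), with a median of -0.017, and of 0.314 without library 489. Gbp6 was at 0.67 there, Adar, an RNA editing enzyme, at -0.46 and Usp18, which removes ISG15 and restrains the receptor, at 0.74 (each adjusted p 1).

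Exchange of the mitochondrial genome changed no interferon gene by edgeR's test on either nucleus. On the C57 nucleus (C57n-C3Hmt against C57_WT), 0 of 45 genes were called, where 0% of all genes were, with 14 (31.1%) at an unadjusted p below 0.05, against 11.3% of all genes, and 0 by DESeq2. The median log2 fold change was -0.399, beside -0.007 over all genes, and 43 of 45 genes were below 0. Oas1a, an oligoadenylate synthetase, had 0.471, 0.99 and 1.76 CPM in C57n-C3Hmt against 1.08, 1.78 and 3.49 CPM in C57_WT libraries, a log2 fold change of -0.98 (SE 0.29). Oasl2 had 3.15, 4.33 and 5.47 CPM in C57n-C3Hmt against 4.1, 5.93 and 13.5 CPM in C57_WT libraries, a log2 fold change of -0.79 (SE 0.247), and Gbp2 had -0.60 (SE 0.188). The edgeR adjusted p was 0.27 for each. No gene was without overlap, against 0.575% of all genes. All 11 macrophage markers were below 0 (median -0.676), and C57_WT is L8 throughout while 4 of 6 C57n-C3Hmt libraries are L2, so L code and exchange cannot be fully told apart.

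On the C3H nucleus (C3Hn-C57mt against C3H_WT), 0 of 45 genes were called, where 0.00747% of all genes were, with 2 (4.44%) at an unadjusted p below 0.05, against 9.38% of all genes, and 0 by DESeq2. The median was -0.146, beside -0.004 over all genes, and 36 genes were below 0. Without library 21 it was 0.066, with 27 genes above 0. Igtp had -1.55 (SE 0.737), Ddx58 -0.33 (SE 0.157) and Irgm2 -1.17 (SE 0.57), each with an edgeR adjusted p of 0.529. Without libraries 21 and 18 Igtp had -0.042 and Irgm2 0.011, so that these values rested on those libraries. All 11 macrophage markers were below 0 here too (median -0.689), and 0 genes were without overlap, against 0.44% of all genes. C3H_WT is L3 throughout while 4 of 6 C3Hn-C57mt libraries are L2, so L code and exchange cannot be fully told apart here either.

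In the libraries titled with surgery, 0 of 45 genes were called between exchanged and wild-type mice in any of 4 comparisons, by edgeR or by DESeq2. After sham, C3H_MNX minus C3H_wt had a median of -0.732 with 44 genes below 0 (0.0149% of all genes called, with 8 interferon genes and 1.47% of all genes at an unadjusted p below 0.05), and C57_MNX minus C57_wt had 0.507 with 42 above 0 (0% called, with 0 interferon genes and 2.2% of all genes unadjusted). After ACF the medians were 0.311 in C3H titles (0.0149% called, with 0 interferon genes and 5.51% of all genes unadjusted) and -0.243 in C57 titles (0% called, with 2 and 7.95% unadjusted). The genes with the smallest p were Iigp1 (-1.15), Igtp (-1.13) and Gbp3 (-1.94) in C3H titles after sham, and Ifih1 (0.79), Gbp2 (1.15) and Psmb8 (1.04) in C57 titles after sham. After ACF they were Tapbp (0.53), Iigp1 (0.74) and Eif2ak2 (0.32) in C3H titles, and Rsad2 (-2.74), Isg15 (-2.20) and Dtx3l (0.45) in C57 titles. Each of these medians moved with a single library. The sham median in C3H titles was -0.063 without library 482, and that in C57 titles was 0.16 without library 6763. The median after ACF was -0.103 in C3H titles without library 6756 and 0.406 in C57 titles without library 489, both with the sign turned, and without 489 Rsad2 was at 0.64 and Isg15 at 0.69 in C57 titles.

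Libraries that stood apart shared some of their high interferon genes and differed in others. Nlrc5 was 6.63 times the median of its group's other libraries in library 21, 3.79 in library 18, 8.1 in library 482 and 6.56 in library 489, and Tap1 was 3.72, 3.97, 5.53 and 5.81 times in the same order. In C3H_WT library 21, against the median of the other C3H_WT libraries, Igtp was 27.7 times as high, Irgm2 14.4, Iigp1 10.6 and Irgm1 5.07 times. Isg15 was 1.27 and Usp18 1.11 times as high there. The 7 GTPases had a median ratio of 5.07 and the 16 antiviral effectors one of 1.7. The summed macrophage markers in library 21 were 97.8 CPM, against 222 CPM in library 23 and 62.1 to 86.4 CPM in the remaining C3H_WT libraries. The part of those cells was not tested.

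In C3Hn-C57mt library 18 the highest ratios were those of Psmb8, an immunoproteasome subunit (7.41), and Igtp (6.88), with a median of 3.38 in antigen processing and 1.46 in antiviral effectors. Its macrophage markers summed to 95.8 CPM, the highest of its group. Library 482 had 34 of 45 genes at 2 or more times the median of the other C3H_wt_sham libraries, led by Nlrc5 (8.1), Gbp3 (7.97) and Zbp1 (7.44), with Iigp1 at 4.38. Its macrophage markers summed to 61.6 CPM, against 52.5 and 51.9 CPM in libraries 483 and 485, and the part of those cells was not tested.

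In library 489 antiviral effectors led. Rsad2 was 29.3 times the median of the other C57_wt_ACF libraries, Isg15 20.8, Oas3 15.3 and Oasl2 9.06 times, while Iigp1 was 0.651 and Gbp6 0.442 times. Isg15 had 7.98 CPM in it and 0.438 and 0.331 CPM in the others. Ratios of at least 2 were reached by 29 of 45 genes in library 489 and by 16 in library 21. Library 489 is also the library with few cardiomyocyte and many blood, fibroblast and macrophage markers, and the part of those cells was not tested.

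**Figure D5:**
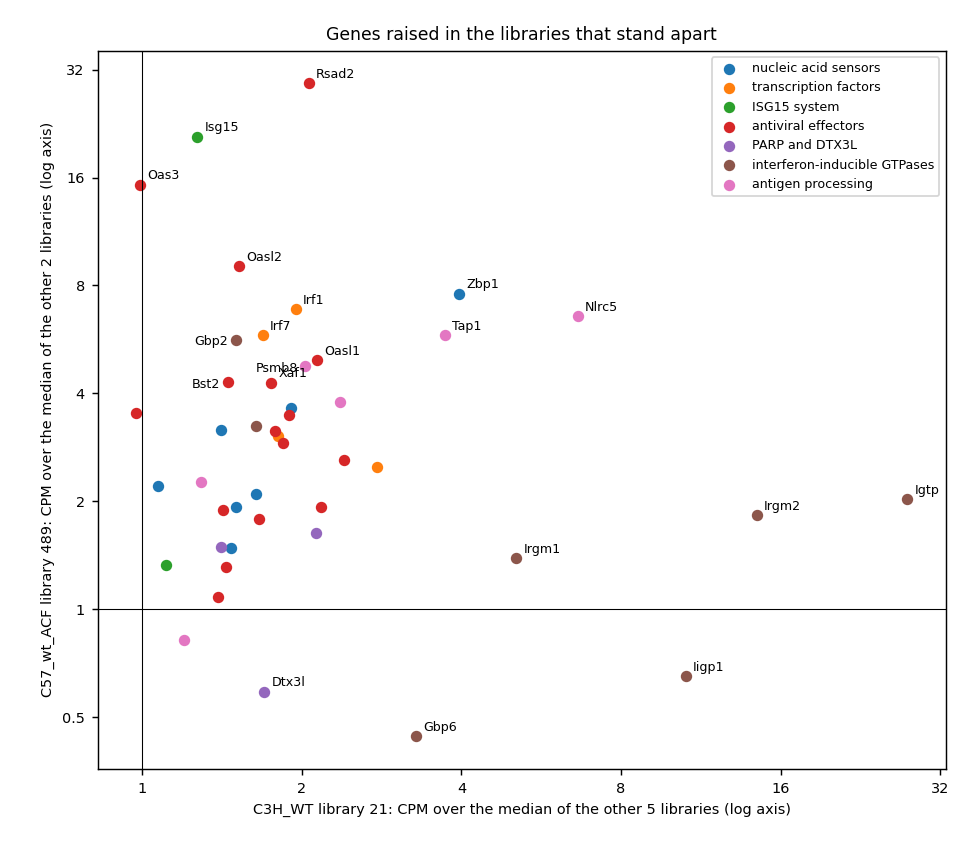
Ratio of each interferon gene to the median of the other libraries of its group, in C3H_WT library 21 (x, log axis) and C57_wt_ACF library 489 (y, log axis), coloured by role. Igtp, Irgm2, Iigp1 and Irgm1 lie far to the right with ratios in library 489 from 0.651 to 2.03, and Rsad2, Isg15 and Oas3 lie at the top with ratios in library 21 from 0.989 to 2.06.

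The rest of the pathway was read from 52 genes, of which 40 were tested in the libraries with surgery and 39 in the others. None of the 10 interferon genes themselves passed the filter on low counts in either. None of the tested genes passed after ACF or after mitochondrial exchange.

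By nucleus, 8 of the 39 were higher and 7 lower on the C3H nucleus over the mean, a share close to the 18.9% of all genes called higher and 16.8% called lower. All 4 called among 6 receptor genes were lower: Ifnar2 (-0.36), a chain of the type I receptor, Ifngr1 (-0.20) and Ifngr2 (-0.17), the chains of the interferon-gamma receptor, and Il10rb (-0.19), shared by the lambda interferon receptor. Among genes of nucleic acid sensing, Traf3 (0.61), Mavs (0.35), which relays RIG-I signals at the mitochondrial surface, the DNA sensors Ifi204 (0.71) and Aim2 (0.43), and Ticam1 (0.23) were higher and Myd88 (-0.35) was lower. Irf5 (-0.77) and the class I gene H2-D1 (-0.99) were lower, and the peptide transporter Tap2 (0.58), Ptpn11 (0.38) and Irf2bp1 (0.19) were higher. H2-D1 is polymorphic between strains, and counts of C3H libraries came from reads mapped to mm9, a C57BL/6J assembly, an effect that was not tested. The same limit holds for every other difference by nucleus or title prefix given here.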

How the data were processed

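The deposited expected counts per gene were made by the authors with CASAVA 1.8.2, Bowtie and RSEM 1.2.0 on mm9, per the submitters' processing notes. The labels' extract protocol names a stranded mRNA kit and also a provider's own mapping, so the mapping step is not settled. RSEM shares reads among near-identical copies, so levels within the Gbp, Oas, Ifit and Irgm families are uncertain. Expected counts were rounded to whole numbers (13.9% were not whole). Genes were filtered with filterByExpr and tested with edgeR 4.0.16 (R 4.3.3), with trimmed mean of M values scaling, the quasi-likelihood test and Benjamini-Hochberg adjustment over all genes. Libraries with a surgery title (8 groups, 13440 genes) and the others (4 groups, 13395 genes) were fitted apart. DESeq2 1.42.0, the L code as a term and left-out libraries were alternatives. Genes named were those that passed, up to 12 a direction; where fewer than 3 passed, the 3 with the smallest p; 10 interferon genes named in any comparison; and pathway genes that passed, up to 6 a list. The members and lists were chosen with earlier results of these data known. The fits were tested on simulated data. Some results of the pathway lists are not reported here.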

Additional observations from a re-analysis of the deposited data

Results flagged for a closer look

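In the groups of 6, a library was picked out where its gap to the nearest other library, divided by the range of its group, was above Dixon's critical value. Of 180 gene and group pairs, 32 met this. The critical value is set for 1 in 20, or 9 pairs, where values are normal and genes vary independently. Of the 32 pairs, 13 came from library 18 and 11 from library 21. The share over all genes was not computed, so 32 cannot be set against 9. All were on the high side.

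C3H_WT library 21 was far above the others in 11 genes: Igtp (209 CPM), Iigp1 (205 CPM), Irgm2 (159 CPM), Gbp6 (139 CPM), Irgm1 (40.7 CPM), Dtx3l (32.6 CPM), Irf9 (18.4 CPM), Tap1 (17.4 CPM), Eif2ak2 (11.3 CPM), Nlrc5 (7.12 CPM) and Ifi44 (4.4 CPM).

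C3Hn-C57mt library 18 was far above the others in 13 genes. The GTPases were Gbp6 (91 CPM), Iigp1 (64.1 CPM), Igtp (47.3 CPM), Irgm2 (40.4 CPM) and Irgm1 (27.5 CPM). The genes of antigen processing were Psmb10 (63.7 CPM), Psmb8 (29.6 CPM), Tap1 (16 CPM), Psmb9 (7.66 CPM) and Nlrc5 (3.8 CPM). The others were Parp14 (23.2 CPM), Ifi35 (16.4 CPM) and Bst2 (9.38 CPM).

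Of the C57_WT libraries, library 1 stood out in Irgm1 (15.4 CPM), Ifit3 (10.8 CPM), Oas2 (8.6 CPM), Rtp4 (5.91 CPM) and Isg15 (3.15 CPM), and library 5 in Iigp1 (60.7 CPM). C57n-C3Hmt library 8 stood out in Ifit2 (12.3 CPM) and Ifit1 (3.55 CPM).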

How the results depend on the processing

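Counts are of interferon genes called, log2 fold changes are as in the results, and the cause of each change was not tested. No paired analysis was possible because the groups compared share no replicate numbers. Of 104 alternative counts that do not leave out a single library, 13 moved by over 1.5 times. DESeq2 gave 1 for ACF in C3H_wt and 1 for the interaction, each 0 by edgeR. With the L code as a term the count was 0 for the mean ACF effect, 5 for titles after sham, 0 for titles after ACF, and 2, 2 and 3 for the nucleus with C57 mitochondria, with C3H mitochondria and over the mean. Chosen after seeing the data, leaving out libraries 489 and 6756 gave 2 for the mean ACF effect (2.55% of all genes, against 0.275%), leaving out 482 and 489 gave 8 for titles after sham, and leaving out 21 and 18 gave 32, 12 and 29 for the nucleus. Leaving out each library in turn gave 1 to 1 for the mean ACF effect, 0 to 7 for titles after ACF, 0 to 1 for titles after sham, 0 to 1 for ACF in C3H_wt, 0 to 1 for ACF in C57_wt, 17 to 24, 5 to 9 and 13 to 23 for the nucleus, and 0 to 2 for the interaction.

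Signs turned mostly with library 489. For ACF in C57_wt, Rsad2 was -0.086 with the L code, -0.821 without 489 and 6756, -0.838 without 482 and 489 and -0.822 without 489, and Oasl2 was -0.082, -0.241, -0.258 and -0.242; with each library left out in turn they reached 3.065 and 2.058 at the other end. For C57_MNX minus C57_wt after ACF, Rsad2 was 0.64 without 489 and 6756, 0.644 without 482 and 489 and 0.64 without 489, and Isg15 was 0.696, 0.698 and 0.694, with -3.259 and -2.721 at the other end. With the L code, Gbp6 was -0.082 for the response of C3H minus C57 titles, Isg15 was 0.001 for the nucleus with C57 mitochondria, and Ddx58 and Oas2 were 0.031 and 0.209 over the mean. For exchange on the C3H nucleus, Irgm2 was 0.011 without 21 and 18, and with each library left out in turn Igtp ran from -2.499 (without 18) to 0.906 (without 21) and Irgm2 from -1.712 to 0.557. With 3 libraries a group, leaving out a library leaves 2, and low genes such as Zbp1 and Mx1 are limited by depth.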
